A study of Mus musculus with 2 samples.

Results

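The genes described here are 46 genes of the secretory machinery of the endoplasmic reticulum (ER) and of the unfolded protein response, chosen as a list of symbols among the 32285 genes of 2 mouse single-cell libraries. All 46 were found in both libraries. Ddit3 has 2 rows, of which 1 holds no counts, and the rows were summed. After filtering, the 46 genes held 81923 of 8728608 unique molecular identifiers (UMIs, each standing for 1 captured RNA molecule) in the colotomy library and 367740 of 70442705 in the sham library. The libraries come from B6/C57 mice aged 8 to 12 weeks. On postoperative day 14, after a colotomy (a surgical opening of the colon) or after a sham operation, cells of the bowel and of mesenteric adipose tissue were released by digestion, tagged with hashtag antibodies and pooled into 1 library per group. No transgene, drug or other treatment is named for either group, and the number of animals behind each library is not given in the sources used here.

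Proteins bound for the cell surface, the matrix or the lumen enter the ER through the Sec61 channel, lose their signal peptide, and are folded by chaperones and protein disulphide isomerases. Folded cargo leaves in COPII-coated vesicles, escaped chaperones are fetched back by KDEL receptors, and proteins that fail to fold are pulled out and degraded. When folding falls behind demand, the sensors IRE1 (gene Ern1), PERK (gene Eif2ak3) and ATF6 switch on the unfolded protein response. IRE1 splices Xbp1 messenger RNA, PERK favours translation of Atf4, and ATF6 is cut to release a transcription factor, and together they raise the genes of folding, degradation and transport. Plasma cells, which export antibody, goblet cells, which export mucin, and fibroblasts, which export collagen, are the classical heavy users of this pathway in the gut wall.

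With 1 library per group no test of the operation was possible, and each difference between colotomy and sham is a difference between 2 libraries. The sham library was deeper, with a median of 1328 UMIs per kept cell against 778, and it held 42143 kept cells against 9246. The libraries shared 108 barcodes among kept cells. The female-expressed Xist stood at 394 CPM (UMIs scaled to a common total per group of cells) in the colotomy library and 0.724 in the sham library, with Y-linked genes at 156 and 210, so the colotomy library held cells of both sexes. Clusters were built with the 46 genes left out and named from markers that are not among them. The defining markers were present in the 3 secretory classes: Jchain in plasma cell-like cells (20791 and 20130 CPM), Muc2 in goblet-like cells (11610 and 17560) and Col1a2 in fibroblast-like cells (9856 and 2648). Fibroblast-like cells numbered 3411 in the colotomy and 5454 in the sham library, goblet-like cells 1839 and 1433, and plasma cell-like cells 369 and 848. Levels are CPM of the UMIs of a class, with immunoglobulin genes left out of every total because they took 32.4% and 28.2% of UMIs in plasma cell-like cells. Intervals are 95% counting intervals, which do not cover differences between animals, digestions or libraries.

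Because the pathway is switched on through short promoter motifs, the promoters of the members were read first. RefSeq promoter entries (build GRCm38.p6, the mm10 assembly) matched 36 of the 46 genes, without Hyou1, Manf, Mzb1, Atf6, Creb3l1, Derl1, Sec61a1, Ssr2, Spcs3 and Kdelr2. In the 250 bases before the start, the ER stress response element (ERSE, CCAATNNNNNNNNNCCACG, searched on both strands) was found in 9 of the 36 members and in 0.13% of 27025 genes. The 9 were the chaperone genes Hspa5, Hsp90b1, Dnajc3 and Creld2, the lectin chaperones Calr and Canx, the isomerase Pdia6, and the degradation genes Syvn1 and Derl3. The shorter ERSE-II (ATTGGNCCACG) was found in 1 member, Herpud1, and in 0.037% of genes. The XBP1 and ATF6 core motif TGACGTGG was found in 2 members, Kdelr3 and Sec24d, and in 0.603% of genes, and the ATF4-type motif TGATGCAA in 1 member, Herpud1, and in 0.918%. The 2 promoters with ERSE whose genes have the most UMIs in fibroblast-like cells among the chaperones, and the 2 with TGACGTGG, are shown from 5′ to 3′ on the gene's strand, with the fixed letters of each match in capitals.
Hspa5 (chr2:34771840-34772089, plus strand): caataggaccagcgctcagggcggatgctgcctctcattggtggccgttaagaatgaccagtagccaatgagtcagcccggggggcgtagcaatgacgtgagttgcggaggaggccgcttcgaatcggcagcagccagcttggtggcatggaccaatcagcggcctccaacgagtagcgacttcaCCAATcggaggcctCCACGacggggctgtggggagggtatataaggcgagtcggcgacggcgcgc
Hsp90b1 (chr10:86705445-86705694, minus strand): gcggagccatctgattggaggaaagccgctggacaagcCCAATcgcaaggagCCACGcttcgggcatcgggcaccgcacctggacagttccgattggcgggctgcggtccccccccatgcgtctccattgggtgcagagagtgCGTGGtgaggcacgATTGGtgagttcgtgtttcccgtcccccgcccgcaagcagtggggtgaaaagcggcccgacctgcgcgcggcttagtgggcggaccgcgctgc
Kdelr3 (chr15:79516158-79516407, plus strand): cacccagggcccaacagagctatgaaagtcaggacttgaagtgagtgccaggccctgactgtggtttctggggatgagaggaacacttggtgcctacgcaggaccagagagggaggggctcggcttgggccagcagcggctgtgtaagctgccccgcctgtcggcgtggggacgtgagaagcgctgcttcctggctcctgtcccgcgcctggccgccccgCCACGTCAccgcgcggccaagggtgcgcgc
Sec24d (chr3:123267246-123267495, plus strand): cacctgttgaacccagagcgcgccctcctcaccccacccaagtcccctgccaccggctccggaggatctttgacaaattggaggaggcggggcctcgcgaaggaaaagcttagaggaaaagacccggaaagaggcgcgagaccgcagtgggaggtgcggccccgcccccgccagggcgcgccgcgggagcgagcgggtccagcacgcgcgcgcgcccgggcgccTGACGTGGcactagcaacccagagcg
Hspa5 has 1 ERSE, and Hsp90b1 has 2 on opposite strands that do not overlap. A match in these letters is a description of the sequence and not of binding, and Pdia4 and Xbp1, which led several comparisons between the libraries, hold none of the 4 motifs in this window.

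Plasma cell-like cells carried the highest summed level of the 46 genes in both libraries. It was 34632 CPM (interval 33934 to 35340) in the colotomy and 21791 (21576 to 22007) in the sham library. Goblet-like cells came next with 9852 and 8369 CPM, then fibroblast-like cells with 9837 and 6444, and mesothelial-like cells, which cover the serosal surface, with 7986 and 6262. In the colotomy library goblet-like and fibroblast-like cells could not be separated, with a log2 ratio of 0.00 (-0.02 to 0.03). B cell-like cells were lowest of the 11 classes with at least 100 cells in both libraries, with 5174 and 3809 CPM. Among the remaining classes the colotomy levels ran from 5774 in epithelial-like to 6822 in germinal centre B cell-like cells and the sham levels from 4124 in epithelial-like to 5113 in macrophage-like cells. The plot of summed levels by class shows the plasma cell-like cells standing alone and the colotomy library above the sham library in every class plotted.

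**Figure D1:**
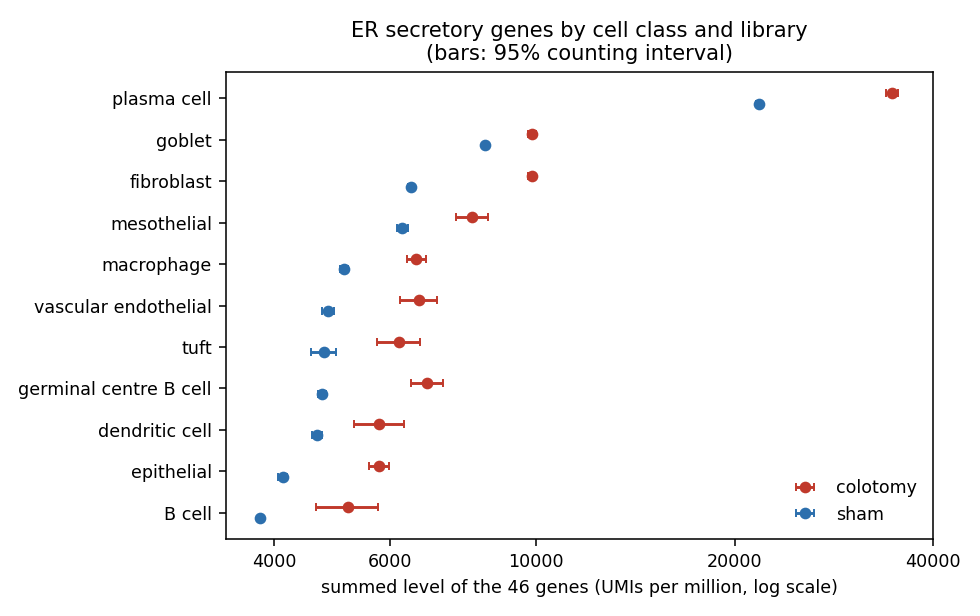
Summed level of the 46 genes (x axis, CPM without immunoglobulins, log scale) in 11 cell classes (y axis) for the colotomy and sham libraries, with 95% counting intervals. Plasma cell-like cells sit at 34632 and 21791, and the other classes lie between 3809 and 9852.

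The top class of each gene was sought among the 11 classes with at least 100 cells in both libraries. Of the 46 genes, 37 were highest in plasma cell-like cells in the colotomy library, 38 in the sham library and 36 in both. The shares of all genes were 6.91%, 6.63% and 2.94%. Against fibroblast-like cells the summed level in plasma cell-like cells was 3.52-fold higher (3.44 to 3.6) in the colotomy and 3.38-fold higher (3.34 to 3.42) in the sham library. In the colotomy library 36 members were at least 1.5-fold higher and 4 at least 1.5-fold lower, where 27.6% and 29.3% of all genes tested passed in those directions. In the sham library the counts were 36 and 2, against 16.8% and 32.5% of all genes. The median log2 ratio of the members was 1.31 and 1.45, beside 0.00 and -0.12 for all genes.

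In the colotomy library the largest ratios were those of Mzb1, Derl3, Edem1, Xbp1, Ssr4 and Creld2. Mzb1, an ER chaperone of antibody-secreting cells, stood at 1966 CPM in plasma cell-like and 33.1 in fibroblast-like cells of the colotomy library, and at 1679 and 73.7 in the sham library (log2 ratios 5.89 and 4.51). Derl3, a membrane protein of the degradation channel, gave 373 against 7.56 CPM and 343 against 7.29 (5.62 and 5.56). Edem1, a lectin that hands misfolded glycoproteins to degradation, gave 1726 against 96.5 and 774 against 65 (4.16 and 3.57). Mzb1 and Derl3 thus had the 2 largest ratios in both libraries, and Edem1 the next. Creld2, an ER protein with isomerase activity, gave 573 against 67.7 and 266 against 30.2 (3.08 and 3.14), and Ssr4, a subunit of the translocon-associated protein (TRAP) complex, 983 against 104 and 1021 against 135 (3.23 and 2.92). Xbp1, the transcription factor spliced by IRE1, gave 4474 against 358 CPM in the colotomy library and 1324 against 190 in the sham library (3.64 and 2.80).

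By role, all 10 chaperone genes, all 7 degradation genes and all 10 genes of the translocon, TRAP and signal peptidase were at least 1.5-fold higher in plasma cell-like than in fibroblast-like cells, in both libraries. Summed, the chaperones reached 13956 against 2910 CPM in the colotomy library and 8573 against 1616 in the sham library. Hsp90b1 (GRP94), the chaperone of the ER that is related to Hsp90, alone gave 7364 against 1106 and 3857 against 653. Hspa5 (BiP), the central Hsp70 of the ER, differed less, with 1637 against 891 and 1128 against 404, and Sdf2l1, a partner of BiP, gave 159 against 27.4 and 170 against 22.7. Sec61b, a subunit of the channel, gave 1060 against 224 CPM and 1078 against 199. Among the 6 lectins and isomerases 3 passed in each library. Pdia4 gave 1958 against 360 and 729 against 137, and Calr (calreticulin) 1478 against 909 and 1228 against 636, while P4hb gave 425 against 547 and 401 against 338.

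The members of retrieval and COPII export did not follow this order, and neither did Creb3l1. A list of 25 further COPII and ER-Golgi transport genes, none of them a member, did follow it in sum. These genes stood at 4870 against 2867 CPM in the colotomy and 3283 against 2091 in the sham library (log2 ratios 0.76 and 0.65). None of the 5 retrieval and COPII genes was 1.5-fold higher in plasma cell-like cells in either library, and their summed levels were 606 against 686 CPM in the colotomy and 424 against 427 in the sham library. Creb3l1 (OASIS), a membrane-bound transcription factor known for its part in collagen secretion by bone cells, had the lowest ratio of all members in both libraries. It gave 22.2 CPM in plasma cell-like against 201 in fibroblast-like cells of the colotomy library and 6.64 against 94.2 in the sham library (log2 ratios -3.18 and -3.83). These plasma cell-like values rest on 6 and 12 UMIs. Kdelr3, a KDEL receptor, gave 11.1 against 67.7 and 9.41 against 36.1 (-2.61 and -1.94), and Sec23a, a coat protein of COPII, 36.9 against 108 and 36.5 against 53.7 (-1.55 and -0.56). Ddit3 (CHOP), the factor linked to cell death under ER stress, gave 36.9 against 58 CPM and 31.5 against 44.6. The intervals of the 2 Kdelr3 ratios and of the 2 Sec23a ratios all lie below 0.

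Mia3 (TANGO1), which loads bulky cargo such as collagen into carriers, was nearly level between the classes, at 225 against 216 CPM in the colotomy library and 152 against 164 in the sham library. P4hb gave a log2 ratio of -0.36 in the colotomy and 0.24 in the sham library, Pdia3 of -0.14 and 0.36, Kdelr2 of 0.07 and 0.49, Canx of 0.29 and 0.13 and Sec24d of 0.37 and 0.20. P4hb is both a disulphide isomerase and a subunit of the collagen prolyl hydroxylase. Of the sensors, Atf6 gave 159 against 35.6 CPM and 114 against 38.7, Ern1 22.2 against 10.4 and 26 against 9.32, and Eif2ak3 36.9 against 23.8 and 31.5 against 20.4. Ern1 and Eif2ak3 rest on 6 and 10 plasma UMIs in the colotomy library, so their intervals there include 0. Atf4 gave 321 against 155 and 272 against 174 CPM, and Creb3l2, a relative of Creb3l1, 236 against 149 and 105 against 68.1.

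Goblet-like cells had a profile of their own. P4hb, Creb3l1 and Kdelr2 were highest there in both libraries. In the colotomy library the P4hb interval (527 to 589) overlapped that of fibroblast-like cells (520 to 575). The Kdelr2 interval (231 to 273) overlapped that of plasma cell-like cells (160 to 273). At a finer clustering (resolution 2) goblet-like cells numbered 904 and 732, and an epithelial-like cluster led by Dmbt1, Slc12a2 and Gpx2 held 736 and 524. The part of such cells in the goblet-like values was not tested. Creb3l1 stood at 523 CPM (493 to 553) in the colotomy and 468 (450 to 487) in the sham library. Of the 11 classes with at least 100 cells in both libraries, the next was fibroblast-like (201) in the colotomy library. In the sham library it was mesothelial-like (103). Erythroid-like cells, with too few cells to be ranked, gave 424 CPM (212 to 759) on 11 UMIs in the colotomy library. Against fibroblast-like cells the other large differences were in the translocon and TRAP genes. Sec61b gave 679 against 224 and 611 against 199 CPM (log2 ratios 1.60 and 1.62), Ssr4 241 against 104 and 430 against 135 (1.21 and 1.68), Sec61g 436 against 222 and 642 against 334 (0.97 and 0.94) and Ssr2 149 against 85 and 159 against 58.6 (0.81 and 1.44). In the sham library Kdelr2, with 208 against 106 CPM, had the fifth largest ratio.

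At the other end, Creb3l2 was at 31.2 CPM in goblet-like against 149 in fibroblast-like cells of the colotomy library and at 8.74 against 68.1 in the sham library (-2.25 and -2.96). Creb3l1 was thus higher in goblet-like than in fibroblast-like cells and Creb3l2 lower, in both libraries. Sec23a (-1.59 and -1.22), Ddit3 (-1.18 and -1.03) and Sec24d, which selects cargo for COPII (-0.79 and -0.98), were lower in goblet-like cells, as were Dnajb9, a co-chaperone of BiP (-0.81 and -0.93), and Kdelr3 (-1.04 and -0.25, the latter interval reaching 0.03). Dnajc3, another co-chaperone of BiP, gave 147 against 288 CPM in the colotomy and 128 against 169 in the sham library. In all, 5 members were at least 1.5-fold higher and 11 lower in goblet-like cells of the colotomy library, where 32.6% and 31.2% of all genes passed. In the sham library the counts were 9 and 7, against 25.9% and 32.9%. Neither share of the members exceeded that of all genes. Pdia4 and Xbp1 were close in the 2 classes, with 363 against 360 and 361 against 358 CPM in the colotomy library and 138 against 137 and 222 against 190 in the sham library.

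**Figure D2:**
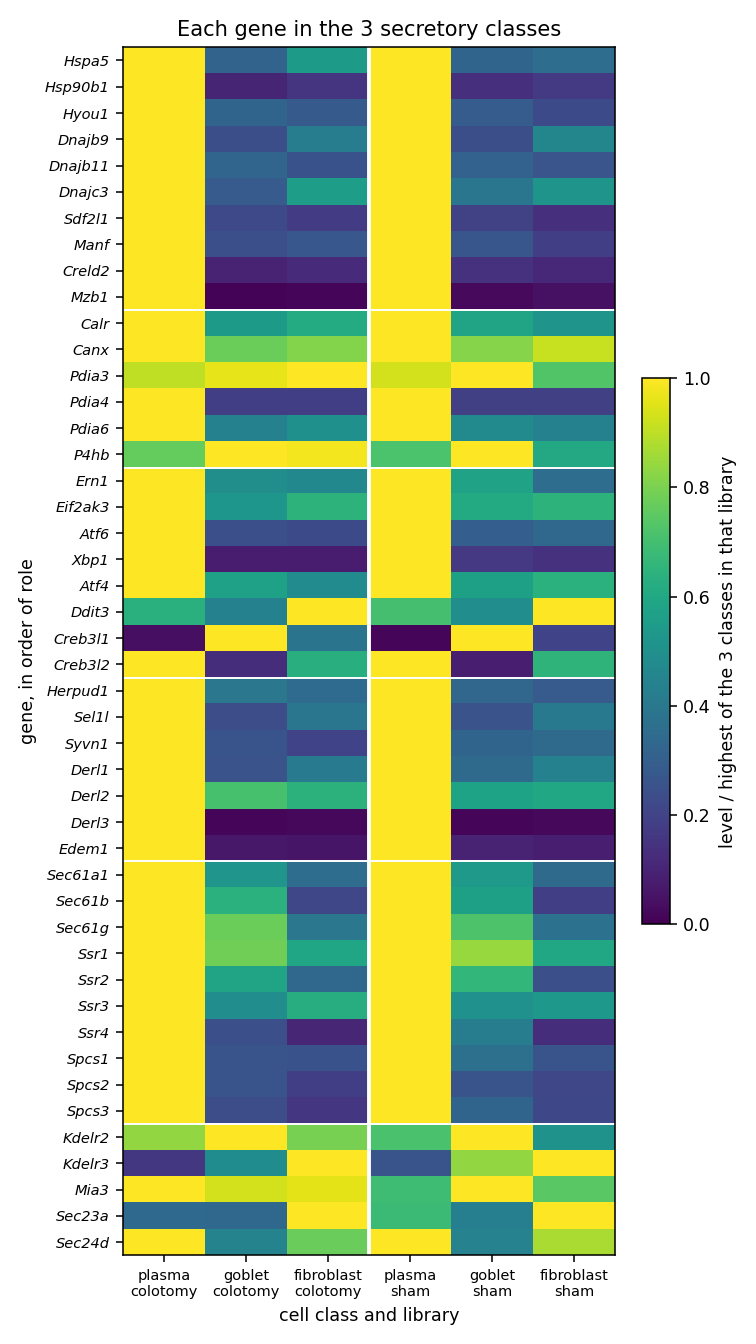
Level of each of the 46 genes (y axis, grouped by role) in plasma cell-like, goblet-like and fibroblast-like cells of each library (x axis), as a share of the highest of the 3 classes in that library. Plasma cell-like cells hold the highest value for most genes, with Creb3l1, P4hb and Kdelr2 highest in goblet-like and Kdelr3, Sec23a and Ddit3 highest in fibroblast-like cells.

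Among the 11 ranked classes fibroblast-like cells held the top level of 2 genes in both libraries, Kdelr3 (67.7 and 36.1 CPM) and Sec23a (108 and 53.7). In the colotomy library the Sec23a interval (96.5 to 121) overlapped those of other classes, such as mesothelial-like cells (52.7 to 155). Smooth muscle-like cells, too few there to be ranked, gave 116 CPM (52.8 to 219) on 9 UMIs. In the sham library the Kdelr3 interval (32.4 to 40.2) overlapped that of goblet-like cells (25.7 to 35.4). Of the members whose top class changed between the libraries, Ern1, Eif2ak3 and Ddit3 are low genes, with tops from 26 to 69 CPM, and Pdia3 and Mia3 have close runners-up. For Ddit3 the top in the colotomy library was in mesothelial-like cells, at 69 CPM (34.4 to 123) on 11 UMIs. That interval overlapped the one of fibroblast-like cells (49.4 to 67.7). In the sham library B cell-like (42.8 to 50.1) and epithelial-like cells (39.9 to 53.4) both stood at 46.3 CPM.

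The next comparison set the colotomy library beside the sham library within each class. The summed level was higher in the colotomy library in all 11 classes compared, and no interval of a log2 ratio reached 0. The ratio was 0.67 (0.64 to 0.70) in plasma cell-like, 0.61 (0.59 to 0.63) in fibroblast-like, 0.53 (0.45 to 0.61) in germinal centre B cell-like, 0.49 (0.43 to 0.54) in epithelial-like, 0.46 (0.36 to 0.55) in vascular endothelial-like and 0.44 (0.28 to 0.60) in B cell-like cells. It was 0.38 (0.25 to 0.50) in tuft-like, 0.36 (0.31 to 0.41) in macrophage-like, 0.35 (0.27 to 0.44) in mesothelial-like, 0.31 (0.18 to 0.44) in dendritic cell-like and 0.24 (0.21 to 0.26) in goblet-like cells. The median log2 ratio of all genes lay between -0.05 and 0.08 in these classes. The classes share the same 2 libraries and are not independent of each other, and free RNA could not be compared between the libraries. In cells with at least 1000 UMIs and 500 genes the ratio was 0.69 in fibroblast-like, 0.56 in plasma cell-like and 0.28 in goblet-like cells, and it was 0.74 when fibroblast-like cells were limited to those holding Y-linked but no Xist UMIs.

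In fibroblast-like cells 18 of the 46 genes were at least 1.5-fold higher in the colotomy library, where 17.1% of 14482 genes were, and 2 were at least 1.5-fold lower, where 19.6% were. The members' median log2 ratio was 0.53, beside -0.03 for all genes. The isomerase Pdia4 differed most, with 360 CPM (338 to 383) against 137 (129 to 144), a log2 ratio of 1.40 (1.28 to 1.52). Creld2 followed with 67.7 against 30.2 CPM (1.16), then Hspa5 with 891 against 404 (1.14), Creb3l2 with 149 against 68.1 (1.13) and Manf, a secreted ER stress protein, with 266 against 123 (1.12). Creb3l1 gave 201 against 94.2 CPM (1.10), Hyou1, a nucleotide exchange factor for BiP, 75.3 against 36.9 (1.03) and Sec23a 108 against 53.7 (1.01). The genes with at least a doubling were therefore chaperones, an isomerase, the 2 factors Creb3l1 and Creb3l2 and a COPII coat protein.

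Other members of the same roles were higher by less. Hsp90b1 gave 1106 against 653 CPM (0.76), Xbp1 358 against 190 (0.91), Kdelr2 200 against 106 (0.92), Kdelr3 67.7 against 36.1 (0.91) and P4hb 547 against 338 (0.69). Calr gave 909 against 636 (0.52), Sec24d 94.3 against 68 (0.47), Mia3 216 against 164 (0.40) and Sec61b 224 against 199 (0.17). Counted by role, 7 of 10 chaperones, 3 of 6 lectins and isomerases, 3 of 8 sensors and factors and 3 of 5 retrieval and export genes passed 1.5-fold upward. Of the 7 degradation genes 0 passed in either direction, though they summed to 513 against 413 CPM (0.31, 0.22 to 0.40). Of the 10 genes of the translocon, TRAP and signal peptidase 2 passed upward and 1 downward.

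The sensors Atf6, Eif2ak3 and Ern1, and Atf4, differed less between the libraries than most chaperones. Atf4 was at 155 CPM in the colotomy and 174 in the sham library (-0.17, -0.32 to -0.01), Atf6 at 35.6 and 38.7 (-0.12), Eif2ak3 at 23.8 and 20.4 (0.22) and Ern1 at 10.4 and 9.32 (0.16). The intervals of the last 3 include 0. Ddit3 gave 58 against 44.6 CPM (0.38, 0.11 to 0.65), Sdf2l1 27.4 against 22.7 (0.27, -0.13 to 0.65) and Derl3 7.56 against 7.29 (0.05). In the list of PERK-ATF4 and integrated stress response targets, none of them a member, 5 of 17 measured genes were at least 1.5-fold higher and 4 lower, with a median of -0.13. These counts are to be read against the shares of all genes given above for this class. The list summed to 748 against 639 CPM (0.23, 0.15 to 0.30). The amino acid genes Phgdh (24.5 against 42 CPM) and Shmt2 (16.6 against 27.1) were among the lower, and Cebpb (271 against 74.2), a factor with many other inducers, was the most abundant of the higher.

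The lowest members in fibroblast-like cells were Mzb1, with 33.1 against 73.7 CPM (-1.15, -1.48 to -0.84), and Sec61g, a small subunit of the channel, with 222 against 334 (-0.59, -0.71 to -0.46). Ssr4 gave 104 against 135 (-0.37). In fibroblast-like cells with at least 1000 UMIs and 500 genes (679 and 4388 cells) Mzb1 moved to -0.45 and Sec61g to -0.27, and 0 members were then 1.5-fold lower and 26 were 1.5-fold higher, where 20.7% and 19.4% of all genes were. Mzb1 was at 20.7 CPM (1 UMI) and 81.1 CPM in T cell-like cells, which are not antibody-secreting, and the plasma cell marker Jchain was at 194 and 131 CPM in fibroblast-like cells. The part of free RNA in the Mzb1 values was not tested.

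**Figure D3:**
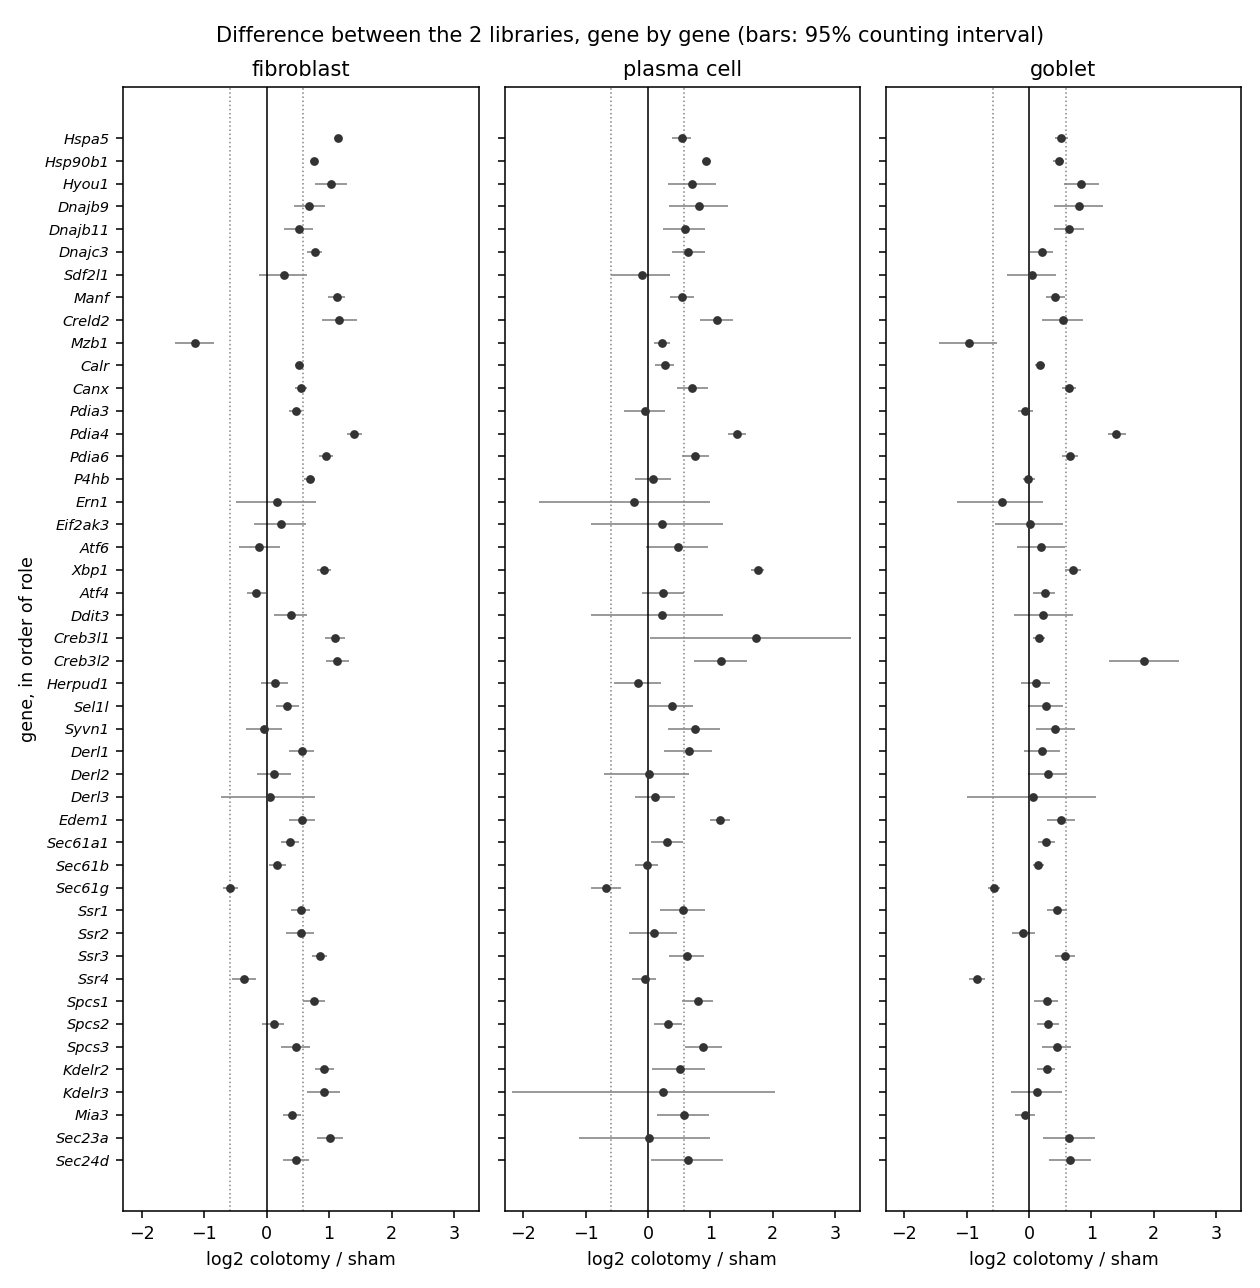
Log2 ratio of colotomy to sham (x axis) for each of the 46 genes (y axis, grouped by role) in fibroblast-like, plasma cell-like and goblet-like cells, with 95% counting intervals and dotted lines at 1.5-fold. Pdia4 lies at 1.40, 1.43 and 1.40 in the 3 classes and Sec61g at -0.59, -0.67 and -0.56.

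The fibroblast-like cells of the libraries were not the same mixture. The cluster led by Col1a1 held 55.8% of them in the colotomy and 3.5% in the sham library, and the cluster led by Inmt 12.8% and 46%. Within the Col1a1-led cluster the summed level was 10386 CPM against 8202 (log2 ratio 0.34, 0.29 to 0.40), within the Fbn1-led cluster 9203 against 6615 (0.48, 0.44 to 0.52), within the Inmt-led cluster 8437 against 6243 (0.43, 0.38 to 0.49) and within the Adamdec1-led cluster 9960 against 6036 (0.72, 0.63 to 0.82). The libraries thus differed in the same direction inside each of the 4 clusters, by less than the pooled 0.61 in 3 of them. Immediate early genes, which digestion is known to raise, were also higher in sum in the colotomy library in each. Their log2 ratios were 0.74 (0.64 to 0.85) in the Col1a1-led, 0.60 (0.52 to 0.68) in the Inmt-led, 0.27 (0.22 to 0.33) in the Fbn1-led and 0.27 (0.12 to 0.42) in the Adamdec1-led cluster. Their part in the members' values was not tested.

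Within the Col1a1-led cluster chaperones summed to 3059 against 1841 CPM (0.73, 0.62 to 0.85) and retrieval and COPII genes to 764 against 686 (0.16, -0.03 to 0.35). Pdia4 was at 381 against 188 CPM there (1.02, 0.67 to 1.39), Hspa5 at 936 against 505 (0.89, 0.68 to 1.11), Manf at 277 against 117 (1.24, 0.80 to 1.71) and Xbp1 at 362 against 213 (0.76, 0.43 to 1.11). Creb3l1, with 245 against 206 (0.25, -0.10 to 0.61), Kdelr2, with 241 against 201 (0.26, -0.09 to 0.63), Kdelr3, with 80 against 96.5 (-0.27, -0.80 to 0.29), and Sec23a, with 127 against 104 (0.29, -0.20 to 0.81), had intervals that include 0. In the Inmt-led cluster Pdia4 gave 312 against 131 CPM (1.25) and Hspa5 663 against 382 (0.80), while Creb3l1 gave 79.4 against 93.8 (-0.24, -0.87 to 0.33) and Kdelr2 104 against 105 (-0.02, -0.57 to 0.49). The whole retrieval and COPII list was at 519 against 403 CPM there (0.37, 0.13 to 0.59), and the chaperones at 2435 against 1545 (0.66, 0.55 to 0.76). In the Adamdec1-led cluster the chaperones were at 3273 against 1636 (1.00, 0.83 to 1.17) and the retrieval and COPII list at 521 against 419 (0.31, -0.13 to 0.72). In the Fbn1-led cluster both kinds were higher in the colotomy library, with Hspa5 at 870 against 425 (1.03), Creb3l1 at 161 against 90.1 (0.84) and Kdelr2 at 161 against 100 (0.69).

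In plasma cell-like cells 19 of 46 members were at least 1.5-fold higher in the colotomy library, where 22.0% of 9857 genes were, and 1 was lower, where 19.8% were. The members' median log2 ratio was 0.52 beside 0.03. Xbp1 led with 4474 CPM (4226 to 4734) against 1324 (1272 to 1378), 3.38-fold higher (3.15 to 3.62). Creb3l1 came next at 1.74, but on 6 and 12 UMIs with an interval from 0.04 to 3.26. Pdia4 gave 1958 against 729 CPM (1.43), Creb3l2 236 against 105 (1.17), Edem1 1726 against 774 (1.16), Creld2 573 against 266 (1.11) and Hsp90b1 7364 against 3857 (0.93). Hspa5, with 1637 against 1128 (0.54), differed less than in fibroblast-like cells.

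Of the 5 genes with the largest plasma over fibroblast ratios in the colotomy library, Edem1 and Xbp1 are among those just named, and Mzb1, Derl3 and Ssr4 differed less between the libraries. Mzb1 gave 1966 against 1679 CPM (0.23), Derl3 373 against 343 (0.12, -0.20 to 0.43), Sec61b 1060 against 1078 (-0.02) and Ssr4 983 against 1021 (-0.05). Sec61g was the 1 member at least 1.5-fold lower, with 562 against 892 (-0.67). Herpud1, an anchor of the degradation complex, gave 244 against 272 (-0.16), Sdf2l1 159 against 170 (-0.10) and Ern1 22.2 against 26 (-0.23), each with an interval that includes 0. Atf4 gave 321 against 272 (0.24), Atf6 159 against 114 (0.48), Ddit3 and Eif2ak3 36.9 against 31.5 each (0.23), Calr 1478 against 1228 (0.27), P4hb 425 against 401 (0.08), Kdelr2 211 against 148 (0.51), Kdelr3 11.1 against 9.41 (0.24), Sec24d 122 against 78 (0.64) and Mia3 225 against 152 (0.57). All degradation genes together stood at 3215 against 2004 CPM (0.68, 0.57 to 0.79), with 3 of 7 past 1.5-fold. In fibroblast-like cells 0 of 7 passed, with Edem1 (0.57) and Derl1 (0.56) just under the threshold. The sum there was 513 against 413 CPM (0.31, 0.22 to 0.40). That difference between the classes was not tested.

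The isotype of the plasma cell-like cells also differed between the libraries, a split chosen after the values were seen. Cells whose heavy-chain UMIs came mostly from Igha were 40.9% of them in the colotomy and 70.9% in the sham library, and those with mostly IgG genes 52.8% and 20%. The summed level of the members was 31697 against 21244 CPM in IgA-type cells (151 and 601 cells), 36624 against 24369 in IgG-type cells (195 and 170) and 34500 against 20639 in IgM-type cells (23 and 77). Xbp1 stood at 4812 against 1293 CPM in IgA-type and at 4211 against 1486 in IgG-type cells, so the colotomy library was higher within each of these isotypes. Immediate early genes summed to 4039 against 2911 CPM in plasma cell-like cells (0.47, with 8 of 17 at least 1.5-fold higher and 3 lower), and their part in the members' values was not tested. Fibroblast markers summed to 1042 CPM in plasma cell-like cells of the colotomy library and 337 in the sham library, against 37340 and 24535 in fibroblast-like cells. Collagen-specific ER proteins likewise summed to 281 against 138 CPM in plasma cell-like cells, and the part of free fibroblast RNA in the low Creb3l1 counts was not tested.

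In goblet-like cells 10 of 46 members were at least 1.5-fold higher in the colotomy library, where 14.8% of 13238 genes were, and 2 were lower, where 13.5% were. The largest were Creb3l2, with 31.2 against 8.74 CPM (1.84, 1.28 to 2.41, on 71 and 45 UMIs), Pdia4, with 363 against 138 (1.40), Hyou1, with 85.4 against 47.6 (0.84), Dnajb9, with 42.2 against 24.3 (0.80), and Xbp1, with 361 against 222 (0.70). Hspa5 gave 521 against 365 (0.51) and Hsp90b1 749 against 539 (0.48). The genes highest in goblet-like cells differed little, with Creb3l1 at 523 against 468 (0.16), P4hb at 557 against 560 (-0.01) and Kdelr2 at 252 against 208 (0.28). Mzb1 (21.1 against 41.4, -0.97), Ssr4 (241 against 430, -0.84), Sec61g (436 against 642, -0.56), Ern1 (11 against 15, -0.44) and Ssr2 (149 against 159, -0.10) were the 5 lowest, the last 2 with intervals that include 0.

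Most of the other genes followed by name in goblet-like cells were within 1.5-fold, with Sec24d as the exception. Calr gave 807 against 716 CPM (0.17), Atf4 184 against 155 (0.25), Atf6 38.7 against 34 (0.19), Ddit3 25.5 against 21.8 (0.23), Eif2ak3 19.4 against 19.2 (0.01), Derl3 5.72 against 5.44 (0.07), Sdf2l1 34.8 against 33.8 (0.04), Sec61b 679 against 611 (0.15), Kdelr3 33 against 30.3 (0.12) and Mia3 210 against 220 (-0.07). Sec24d gave 54.6 against 34.6 (0.66). Of 19 other folding enzymes that are not members, 0 were at least 1.5-fold higher and 1 lower, with a median of -0.18, and the most abundant was the mucin isomerase Agr2 (2568 against 3157 CPM). Goblet markers themselves summed to 23846 against 34082 CPM, fibroblast markers in these cells to 2123 against 779, and immediate early genes to 1534 against 1964.

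In the 5 other classes for which a share of all genes is given, the members' counts exceeded that share upward by varying amounts. They were 21 of 46 higher and 4 lower in epithelial-like cells (24.7% and 19.8% of all genes), 19 of 45 and 2 in germinal centre B cell-like cells (23.8% and 14.6%) and 19 of 46 and 8 in vascular endothelial-like cells (24.1% and 19.2%). They were 18 of 45 and 4 in mesothelial-like cells (23.4% and 22.2%) and 10 of 45 and 2 in macrophage-like cells (21.1% and 25.0%). In macrophage-like cells the upward count is thus near the share of all genes. Xbp1 was among the 5 largest ratios in 4 of these classes. It gave 306 against 79.8 CPM in germinal centre B cell-like (1.94), 527 against 153 in vascular endothelial-like (1.79), 310 against 105 in epithelial-like (1.55) and 255 against 143 in macrophage-like cells (0.84), and 289 against 199 in mesothelial-like cells (0.54).

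The other members with the 5 highest and the 5 lowest log2 ratios in these classes include many that rest on few UMIs. In epithelial-like cells Sec24d (1.56), Pdia4 (1.44), Dnajc3 (1.11) and Kdelr3 (2.62, on 7 and 8 UMIs) were high with intervals above 0. Of the 5 lowest there, Mzb1 (-1.0), Sec61g (-0.69) and Ssr4 (-0.48) had intervals below 0, and Sdf2l1 (-0.63) and Derl3 (-0.60) did not. In germinal centre B cell-like cells Sec23a (1.46, on 7 and 72 UMIs), Pdia4 (1.28), Hsp90b1 (1.18) and Creld2 (1.18) had intervals above 0. Sec61g (-0.95) and Ssr4 (-0.92) had intervals below 0 there, and Ssr2 (-0.21), Herpud1 (-0.12) and Mia3 (-0.00) did not. In vascular endothelial-like cells Creb3l1 (1.66, on 8 and 34 UMIs), Sec24d (1.62, on 8 and 35), Creb3l2 (1.43) and the co-chaperone Dnajb11 (1.36) had intervals above 0. Sec61g (-1.34) and Mzb1 (-1.11) had intervals below 0 there, while Derl2 (-1.11), Eif2ak3 (-1.06) and Atf6 (-0.93), on 3, 1 and 3 colotomy UMIs, did not. In mesothelial-like cells the intervals of Sec23a (1.43), Pdia4 (1.18), Sec24d (1.14) and Dnajb9 (1.13) lay above 0 and that of Creld2 (1.14) did not. Sec61g (-0.96) had an interval below 0 there, and Mzb1 (-0.71) as well as Eif2ak3 (-1.37), Derl3 (-1.0) and Ern1 (-0.48), the last 3 on 1, 1 and 2 colotomy UMIs, did not. In macrophage-like cells Creb3l1 (2.11), Sec24d (1.42), Pdia6 (0.94) and Spcs3, a subunit of signal peptidase (0.88), had intervals above 0. Mzb1 (-1.23), Herpud1 (-0.81) and Sec61g (-0.31) had intervals below 0 there, and Atf4 (-0.27) and, tied, Eif2ak3 and Derl3 (-0.17) did not. Collagen-specific ER proteins, which are not members, were also higher in sum in the colotomy library in these classes. They gave 1443 against 550 CPM in vascular endothelial-like, 402 against 163 in epithelial-like and 1512 against 732 in mesothelial-like cells. In macrophage-like cells they gave 635 against 300, and in germinal centre B cell-like cells 142 against 109 (0.38, -0.25 to 0.94). The part of free fibroblast RNA in the Creb3l1, Creb3l2, Sec24d and Kdelr3 values was not tested.

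Directions were then counted across the 11 classes, which share the same libraries. Of the 46 genes, 14 had a ratio above 0 in every class where they were measured, against 7.54% of the 11254 genes measured in at least 5 classes, and 1 had a ratio below 0 in each, against 3.85%. An interval above 0 in at least 6 classes was found for 17 members and for 3.72% of those genes, and one below 0 in at least 6 for 2 members and 3.16%. Genes with more UMIs have narrower intervals, and these genes were not matched to the members for UMI count, so the shares are not like for like. Pdia4 and Xbp1 each had an interval above 0 in 10 classes, with median log2 ratios of 1.26 and 1.06, and Hspa5 in 9 (0.73). Sec61g was below 0 in all 11 classes, from -0.17 in tuft-like to -1.34 in vascular endothelial-like cells, with an interval below 0 in 8. Mzb1 was below 0 in 9 of 11, with a median of -0.97, and above 0 only in plasma cell-like and germinal centre B cell-like cells. Ssr4 was below 0 in 9 of 11 (median -0.37). Atf4, Atf6 and Eif2ak3 had medians of 0.04, 0.17 and 0.03, and Mia3 and Sec61b of -0.01 and -0.02.

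The last comparison followed the members with the level of Col1a1, the main fibrillar collagen chain, inside fibroblast-like cells. Each cell was thinned to 500 UMIs and placed in 1 of 4 bins by its Col1a1 UMIs: 0, 1 to 2, 3 to 5, and 6 or more. The bins held 405, 882, 831 and 1293 cells in the colotomy and 2921, 2061, 374 and 98 in the sham library. The summed level of the members was 8225, 9124, 10128 and 10557 CPM along the bins in the colotomy library and 6099, 6654, 7380 and 8541 in the sham library. From the lowest to the highest bin it was 1.28-fold higher (1.23 to 1.34) in the colotomy and 1.40-fold higher (1.33 to 1.47) in the sham library. The Col1a1-led cluster held 1145 of the 1293 colotomy cells and 57 of the 98 sham cells in the top bin, so Col1a1 level and cluster cannot be told apart there.

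The largest folds along Col1a1 were those of retrieval, export and Creb3l genes, while lectins and isomerases added most to the sum, going from 2433 to 3311 CPM in the colotomy and from 1779 to 2653 in the sham library. Retrieval and COPII genes summed to 463, 588, 653 and 830 CPM along the colotomy bins and to 378, 452, 578 and 763 along the sham bins. Creb3l1 was at 82.5, 143, 205 and 269 CPM in the colotomy and at 74.3, 103, 142 and 282 in the sham library, log2 ratios of top to lowest bin of 1.71 and 1.92, both with intervals above 0. Kdelr3 was at 34.9, 50, 62.3 and 91.2 CPM and at 26.2, 40.5, 69.5 and 102 (1.39 and 1.96). For Creb3l1 the libraries were close in the lowest and the top bin and the colotomy library was higher in the middle bins. Kdelr2 was at 102, 138, 202 and 265 CPM and at 89.9, 114, 151 and 214 (1.39 and 1.25), Sec24d at 53.9, 82.4, 83.1 and 120 and at 56.2, 79, 91.1 and 107 (1.15 and 0.93), Sec23a at 73, 94.2, 96.4 and 134 and at 45.9, 54.9, 77.2 and 151 (0.88 and 1.71), and Creb3l2 at 98.3, 118, 129 and 195 and at 61.1, 71.3, 91.1 and 117 (0.99 and 0.93).

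In each step from bin to bin 15 members were higher in the colotomy library and 18 in the sham library, and 11 of these were shared, where 7.70%, 9.37% and 2.75% of all genes were: Calr, Canx, Creb3l1, Creb3l2, Kdelr2, Kdelr3, P4hb, Pdia4, Sec23a, Sec24d and Ssr3. P4hb was at 400 CPM in the lowest and 661 in the highest bin of the colotomy library and at 301 and 525 in the sham library, and Calr at 644 and 964 and at 595 and 928. Of the 5 retrieval and export genes Mia3 differed least, with 200 and 219 CPM and 159 and 189. Kdelr3 and Sec24d, whose promoters hold TGACGTGG, were among the 11, which is given as a description.

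Chaperones summed to 2519 and 3009 CPM in the lowest and highest bin of the colotomy library and to 1543 and 1905 in the sham library (0.26, 0.14 to 0.37, and 0.30, 0.15 to 0.45). Degradation genes summed to 542 CPM in the lowest and 468 in the highest bin of the colotomy library and to 404 and 423 in the sham library. Syvn1, the ubiquitin ligase of the degradation complex, was at 82.5 and 30.7 CPM in the colotomy library (-1.43, -2.21 to -0.63) and at 53.6 and 38.9 in the sham library (-0.46, -1.69 to 0.54). Xbp1 was at 330 and 344 CPM and at 178 and 170 (0.06 and -0.06), Atf4 at 155 and 175 and at 181 and 170 (0.17 and -0.09) and Ddit3 at 60.3 and 59.6 and at 47.1 and 24.3 (-0.02 and -0.96, intervals including 0). Atf6 (-0.43 and -0.74), Ern1 (0.30 and -0.80), Eif2ak3 (0.77 and -1.26) and Sdf2l1 (0.19 and -0.61) rest on 1 to 34 UMIs in the top bins, and their intervals include 0. Hspa5 was at 704 and 941 CPM and at 383 and 500 (0.42 and 0.38), Hsp90b1 at 1021 and 1132 and at 609 and 889 (0.15 and 0.55), Pdia4 at 295 and 377 and at 127 and 165 (0.36 and 0.38) and Sec61b at 206 and 245 and at 200 and 345 (0.25 and 0.79).

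Counted over members, 11 of 45 were at least 1.5-fold higher and 2 lower in the top bin of the colotomy library, where 18.6% and 23.9% of all genes were, and 15 of 46 and 9 in the sham library, where 19.9% and 21.0% were. The 2 lower in the colotomy library were Mzb1 and Syvn1. The 5 lowest ratios there were those of Mzb1 (-2.37), Syvn1, Derl2 (-0.51), Hyou1 (-0.50) and Edem1 (-0.46), and those in the sham library were Mzb1 (-1.78), Derl2 (-1.26), Eif2ak3, Ddit3 and Derl3 (-0.90, on 1 UMI in the top bin). Derl3 had 8 UMIs over both bins of the colotomy library and was not counted there. Collagen-specific ER proteins, which are not members, went from 1811 to 3949 CPM and from 1112 to 2988 along the bins, and immediate early genes from 4631 to 3555 and from 3282 to 2206. Free RNA was estimated at 38.7% of UMIs in the lowest and 12.4% in the highest bin of the colotomy library.

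**Figure D4:**
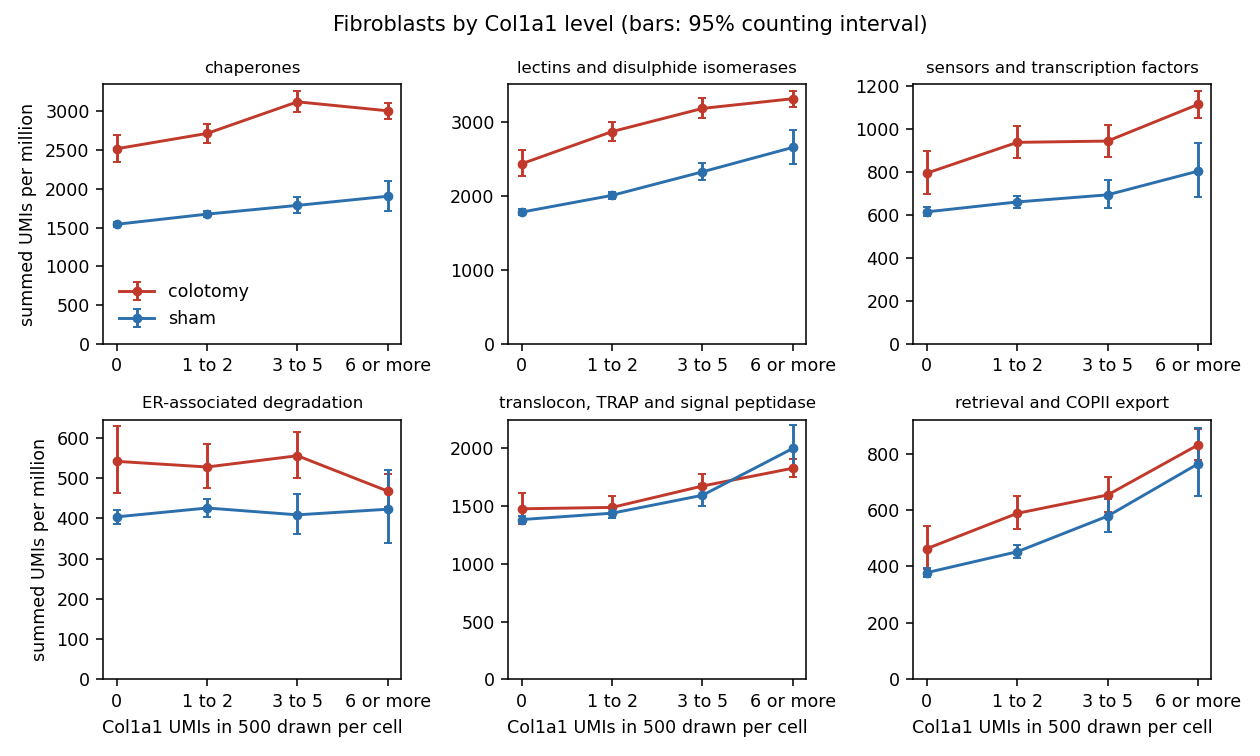
Summed level of the members in 6 roles (y axes, CPM, from 0) in fibroblast-like cells grouped by Col1a1 UMIs in 500 drawn per cell (x axes), with 95% counting intervals. Retrieval and COPII genes go from 463 to 830 in the colotomy and from 378 to 763 in the sham library, degradation genes stay between 404 and 556, and the colotomy line is above the sham line for chaperones in every bin.

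At the same Col1a1 bin the colotomy library was still higher in summed level. The log2 ratio was 0.43 (0.37 to 0.49) among cells with 0 Col1a1 UMIs, 0.46 (0.41 to 0.50) and 0.46 (0.40 to 0.51) in the middle bins, and 0.31 (0.23 to 0.38) at 6 or more. In the top bin Pdia4 stood at 377 against 165 CPM (1.19, 0.69 to 1.74), Manf at 286 against 131 (1.13, 0.56 to 1.75), Xbp1 at 344 against 170 (1.02, 0.51 to 1.56) and Hspa5 at 941 against 500 (0.91, 0.62 to 1.22). Creb3l1 (269 against 282, -0.07), Kdelr3 (91.2 against 102, -0.16), Sec23a (134 against 151, -0.16), Sec24d (120 against 107, 0.17) and Kdelr2 (265 against 214, 0.31) had intervals that include 0. Creb3l2, with 195 against 117 (0.74, 0.13 to 1.42), and P4hb, with 661 against 525 (0.33, 0.04 to 0.64), did not. In the bin with 0 Col1a1 UMIs Pdia4 was at 295 against 127 (1.21), Hspa5 at 704 against 383 (0.88) and Creb3l1 at 82.5 against 74.3 (0.15, -0.48 to 0.72).

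Other genes of the pathway, from lists that do not hold the members, are read against the 17.1% of all genes that were at least 1.5-fold higher in fibroblast-like cells and the 22.0% in plasma cell-like cells. In fibroblast-like cells 6 of 25 further COPII and ER-Golgi transport genes were at least 1.5-fold higher in the colotomy library and 0 lower (median 0.37), among them the cargo receptors Mcfd2 (79.6 against 36 CPM) and Surf4 (245 against 130). Of 17 N-glycosylation genes 4 were higher and 0 lower (median 0.25), of 19 other folding enzymes 5 and 1 (0.14), of 18 other degradation genes 2 and 0 (0.17) and of 13 other translocation genes 1 and 1 (0.20). The upward counts of the degradation and translocation lists were thus below the share of all genes, and those of the first 3 lists close to or somewhat above it. In sum the degradation list was still higher in the colotomy library (1497 against 1246 CPM, 0.26, 0.21 to 0.32), as was the translocation list (1366 against 1174, 0.22, 0.17 to 0.27). Of 12 collagen-specific ER proteins 11 were higher (median 0.98), led in level by the collagen chaperone Serpinh1 (1822 against 781 CPM). In plasma cell-like cells 13 of the 25 transport genes were higher and 0 lower (median 0.64), 9 of 18 degradation genes and 0 lower (0.49), and 8 of 18 measured folding enzymes and 0 lower (0.52), among them the proline isomerase Fkbp11 (410 against 163 CPM) and the oxidase Ero1lb (188 against 90.7). Of the 17 N-glycosylation genes 6 were higher and 2 lower there, and of the 13 translocation genes 1 and 0.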

How the data were processed

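The deposited matrices hold raw UMI counts per gene and barcode, made by the authors with Cell Ranger 6.0.0 per the file headers. Per the submitters' processing notes mm10, STAR 2.5.1b, Seurat and Space Ranger were used, with no role given for the last 2. Barcodes with at least 500 gene UMIs, 300 genes and under 20% mitochondrial UMIs were kept. Gene UMIs came to 12002711 in the 15547 colotomy barcodes and to 74006762 in the 44814 sham barcodes.

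Cells of both libraries were clustered together with scanpy 1.11.5: log counts per 10000, 2000 variable genes without the members, 30 components, 15 neighbours, and the Leiden method in igraph 0.11.9 with the resolution at 1. A cluster was named from at least 3 markers found in 10% of its cells at 2 times the level elsewhere, which gave 22 named and 5 unnamed clusters of 27. Scrublet called 0 barcodes in either library, so it did not work as a doublet filter and none was removed. Hashtag components lay at most 0.975 SD apart, so tissues were not split.

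UMIs were summed per class and library and scaled to CPM without immunoglobulins. CPM has exact Poisson intervals and ratios have exact conditional binomial ones (scipy 1.17.1, 95%). A gene counts as measured with 10 UMIs over both groups and as called at 1.5-fold. A count of 0 takes a floor of 3 counts for a ratio. No p-value was computed, since each group is 1 library. Ratios were tested on simulated Poisson counts, the model the intervals assume, so that test does not cover differences between cells, animals or libraries. Shares of all genes were counted by the members' rules, without matching for UMI count. Named genes are 21 members, given in full for the 3 secretory classes and the Col1a1 bins, and the 5 largest and 5 smallest ratios. Other named genes were chosen after their values were seen, as was the isotype split. The members, gene lists and rules were chosen with earlier results of these data known. Alternatives covered depth, resolution, totals, scaling, hashtags, Scrublet scores, sex-linked UMIs, single clusters and free RNA. Those by hashtags and Scrublet scores cannot decide the part of doublets, because hashtags separated poorly and Scrublet called 0 barcodes.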

Additional observations from a re-analysis of the deposited data

How the results depend on the processing

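No setting reversed any of the 7 summed ratios it was run on. Other resolutions were not run along Col1a1, and sex-linked UMIs and single clusters were used in fibroblast-like cells alone. The colotomy over sham log2 ratio in fibroblast-like cells (0.61) became 0.69 in deeper cells (1000 UMIs and 500 genes or more), 0.63 at resolution 0.5, 0.49 without mitochondrial and ribosomal genes in the total, 0.65 with median scaling, 0.57 without the highest 5% of Scrublet scores, 0.74 in cells with a Y-linked and no Xist UMI, and 0.43, 0.72, 0.48 and 0.34 within the Inmt-, Adamdec1-, Fbn1- and Col1a1-led clusters. In plasma cell-like cells (0.67) it became 0.56 in deeper cells, 0.58 with immunoglobulins in the total and 0.57 without mitochondrial and ribosomal genes, and in goblet-like cells (0.24) 0.28 in deeper cells, 0.17 without those genes, 0.16 with median scaling and 0.34 with cells weighted equally. Plasma over fibroblast-like in the colotomy library (1.82) became 1.62 in deeper cells, 1.76 and 1.77 at resolutions 0.5 and 2, 1.26 with immunoglobulins, 1.93 without mitochondrial and ribosomal genes and 1.85 with equal weights, and in the sham library (1.76) 1.72 and 1.73, 1.29, 1.85 and 1.81 in the same order without the first, 1.85 with median scaling and 1.72 without high Scrublet scores. Along Col1a1 the colotomy ratio (0.36) became 0.27 without mitochondrial and ribosomal genes, 0.44 with median scaling and 0.43 without collagens in the total, and the sham ratio (0.49) 0.38, 0.60 and 0.56. Causes of these shifts were not tested. Fibroblast-like members at least 1.5-fold higher (18) ran from 16 to 27. Derl3 (0.05) and Spcs2 (0.11) changed sign in fibroblast-like cells, to -0.06 and -0.01, without mitochondrial and ribosomal genes.

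Free RNA subtraction was run in the colotomy library alone, where it gave 1.83 and 0.34, because the sham library held 0 barcodes under 500 UMIs. No paired analysis was possible because each group has 1 library. Depth limits Ern1, Eif2ak3, Derl3 and the plasma values of Creb3l1 and Kdelr3, which rest on few UMIs.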

Other observations

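Macrophage-like cells fell into 2 clusters. The C1qa-led cluster (287 and 1752 cells) had a summed level of 6410 CPM in the colotomy and 5066 in the sham library, and the Spp1-led cluster (353 and 94 cells) 6681 and 5808. In macrophage-like cells the PERK-ATF4 target list summed to 1565 CPM in the colotomy and 644 in the sham library, of which the transcription factor gene Cebpb held 917 and 178 and Atf3 215 and 48.4, while Atf4 itself was at 151 and 183 CPM. Creb3l1, at 47.5 and 11 CPM in these cells, rests on 27 and 39 UMIs, and collagen-specific ER proteins summed to 635 and 300 CPM there. Atf3 is also on the list of immediate early genes, which summed to 7174 and 4118 CPM.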
